A study of Mus musculus with 4 samples.

Results

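The respiratory chain subunits are the proteins that make up the 5 complexes of oxidative phosphorylation in the inner mitochondrial membrane. They were followed here in single-cell RNA sequencing of mouse bone marrow progenitors. Members were chosen by gene symbol: subunits of complex I whose symbols begin with Nduf, of complex II (Sdha to Sdhd), of complex III (Uqcr), of complex IV (Cox4 to Cox8) and of complex V (Atp5), and the protein genes of the mitochondrial genome, without pseudogenes and without Cox6a2. This gave 98 of the 32227 genes in the matrices, 85 in the nuclear genome and 13 in the mitochondrial genome. The nuclear members comprise 37 subunits of complex I, 4 of complex II, 8 of complex III, 19 of complex IV (with Ndufa4 and Ndufa4l2) and 17 of complex V. The rule used symbols and no measured value, but the set was proposed with earlier results of these data known.

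All mice were wild type, and all had been injected with E0771, a murine mammary carcinoma line, 3 days before surgery. The surgery group then had ligation of the femoral artery, which cuts the blood supply of the hind limb, and the sham group had sham surgery. Marrow was collected on day 9 and flow-sorted for progenitors that lack lineage markers and carry cKit, whether Sca1-positive or not. PIPseq, a droplet method without a microfluidic chip, gave 2 libraries, and each holds 2 surgery and 2 sham replicates that carry a hashtag, an oligonucleotide tag of the replicate. One library is labelled with the ligation and the other with sham surgery, whereas the hashtag names put both groups in each, so replicates were assigned by hashtag name and the libraries are called batch 1 and batch 2. Every statement on surgery rests on those names, and wrong names in a batch would exchange its groups. Whether each of the 8 replicates comes from a single animal or several is not in the labels, and the p-values reflect only how far these replicates scatter.

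Electrons from NADH enter the chain at complex I and those from succinate at complex II, which is also an enzyme of the tricarboxylic acid cycle. They pass through complex III and cytochrome c to complex IV, which reduces oxygen, and the proton gradient built on the way drives ATP synthesis by complex V. Complexes I, III, IV and V are assembled from products of both genomes, whereas complex II is entirely nuclear-encoded. Blood stem cells are known to rely on respiration less than their progeny, and erythroid precursors need mitochondria to make haem.

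Promoters of the nuclear members are described for reference. In several classes most of these genes were called in the same direction, as described below, and a part of promoter motifs in this was not tested. The upstream 250 bases of 69 of the 85 nuclear members were found by symbol in RefSeq (GRCm38.p6). The NRF1 motif, GCGCA and GCGC with any 1 base between them, was found on either strand in 13 of the 69 windows (18.8%), against 4.23% of the 27025 genes with a window. The letters CCGGAAG, a core motif of ETS factors such as GABP, were found in 12 (17.4%), against 7.83% of all. AAGATGGC, for YY1, was found in 1 (1.45% against 1.83%), and TCAAGGTCA, for oestrogen-related receptors, in 1 (1.45% against 0.422%). No NRF1 match overlapped an ETS match in the members. The shares for comparison are over all genes with a window, whether or not they were detected in these cells. The 4 windows below belong to the members on which the results turn most, with matches in capitals (NRF1 in Sdhd, ETS in Sdhd and Cox6b1, none of the 4 motifs in Cox6b2 and Ndufa4). Each is written 5′ to 3′ on the gene's own strand and ends at the base before the RefSeq start.
Cox6b2, chr7:4753095-4753344, minus strand: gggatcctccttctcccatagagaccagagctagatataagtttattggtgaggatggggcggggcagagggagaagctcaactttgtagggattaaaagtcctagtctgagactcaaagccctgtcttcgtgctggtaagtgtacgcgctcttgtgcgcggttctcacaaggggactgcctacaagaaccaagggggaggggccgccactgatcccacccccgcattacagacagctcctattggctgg
Cox6b1, chr7:30626115-30626364, minus strand: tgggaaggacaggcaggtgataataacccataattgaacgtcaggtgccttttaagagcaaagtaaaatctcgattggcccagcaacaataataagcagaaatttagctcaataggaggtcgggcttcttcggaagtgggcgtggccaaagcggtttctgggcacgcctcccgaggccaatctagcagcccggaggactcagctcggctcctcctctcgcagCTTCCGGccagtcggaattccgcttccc
Sdhd, chr9:50603850-50604099, minus strand: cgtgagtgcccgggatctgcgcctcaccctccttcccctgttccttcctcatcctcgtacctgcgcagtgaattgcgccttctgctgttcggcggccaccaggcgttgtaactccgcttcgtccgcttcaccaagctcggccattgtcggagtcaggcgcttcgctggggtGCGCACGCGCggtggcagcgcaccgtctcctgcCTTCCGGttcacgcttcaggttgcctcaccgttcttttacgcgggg
Ndufa4, chr6:11907451-11907700, minus strand: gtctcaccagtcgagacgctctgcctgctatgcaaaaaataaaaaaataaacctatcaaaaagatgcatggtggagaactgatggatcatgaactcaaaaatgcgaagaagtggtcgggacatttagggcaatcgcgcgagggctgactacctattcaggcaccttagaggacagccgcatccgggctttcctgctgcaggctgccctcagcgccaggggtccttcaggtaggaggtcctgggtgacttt

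On GRCm38 the annotation (GENCODE M21) places Cox6b2 at chr7:4751792-4753094 and Cox6b1, its ubiquitous paralog, at chr7:30616861-30626151, both on the minus strand. Sdhd lies at chr9:50596357-50603812 and Ndufa4 at chr6:11900292-11907497, both on the minus strand. The nuclear members lie on 19 chromosomes. Among them 27 overlap a counted gene on the other strand and 1, Ndufa13, overlaps one on its own strand; the sources used here do not give how strand and reads that match processed copies were treated in counting. In the mitochondrial genome 7 of the 13 members overlap another counted gene, among them the neighbours mt-Atp8 and mt-Atp6 and the neighbours mt-Nd4l and mt-Nd4.

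After filtering, 26942 cells with exactly 1 hashtag were kept, 1883 to 5889 per replicate, with 19521590 to 51862441 UMIs per replicate and a median of 6589.5 UMIs per cell in batch 1 and 11092.5 in batch 2. The 2 libraries shared 5 barcodes. Cells were gated into classes by lineage markers that include no member, and 11 classes had at least 10 cells in each replicate: neutrophil-granulocyte-like (5263 cells), monocyte-like (4443), B-cell-like (3055), erythroid-like (2389), stem and early multipotent-like (HSC/MPP-like, 1885), basophil-mast-like (1323), lymphoid-primed-like (1219), megakaryocyte-like (605), MHC class II-high (532), T/NK-like (445) and mature-neutrophil-like cells (343). The MHC class II-high class was gated on dendritic cell markers, but its leading genes by fold were Cd74, H2-Aa and H2-Eb1 together with the B-cell genes Bank1, Ighd and Igkc, and Cd209d had no UMI in any replicate, so it is called by its leading genes. Kit, the gene of the sorting marker, was highest in HSC/MPP-like cells (median 307 CPM over replicates) and lowest in B-cell-like cells (31.9 CPM). Levels are UMIs of a gene per 1000000 UMIs of a replicate and class (CPM) and are not per transcript length, so a level is compared between classes and not between genes.

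Nuclear members made up 2.79 ± 0.0413% of all UMIs over the 8 replicates, between 2.71% and 2.85%, and mitochondrial members 2.61 ± 0.113%, between 2.46% and 2.76%. The nuclear share was highest in erythroid-like cells (3.52 ± 0.0570%), followed by monocyte-like (2.99 ± 0.0608%) and neutrophil-granulocyte-like cells (2.93 ± 0.0528%). The ranges of the last pair overlapped, at 2.87% to 3.06% and 2.84% to 3.01%, whereas the lowest erythroid-like replicate had 3.44%. Megakaryocyte-like cells came next with 2.61 ± 0.0949%, below every monocyte-like and neutrophil-granulocyte-like replicate, followed by mature-neutrophil-like (2.27 ± 0.148%) and B-cell-like cells (2.26 ± 0.112%), each overlapping its neighbour. Lymphoid-primed-like (2.04 ± 0.0998%), HSC/MPP-like (1.99 ± 0.0749%), basophil-mast-like (1.96 ± 0.0534%) and T/NK-like cells (1.88 ± 0.122%) overlapped in their ranges. The MHC class II-high class had the lowest mean, 1.62 ± 0.151%, and its highest replicate lay within the T/NK-like range. Mean nuclear member UMIs per cell spanned 39.3 in the MHC class II-high class to 485 in erythroid-like cells.

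**Figure D1:**
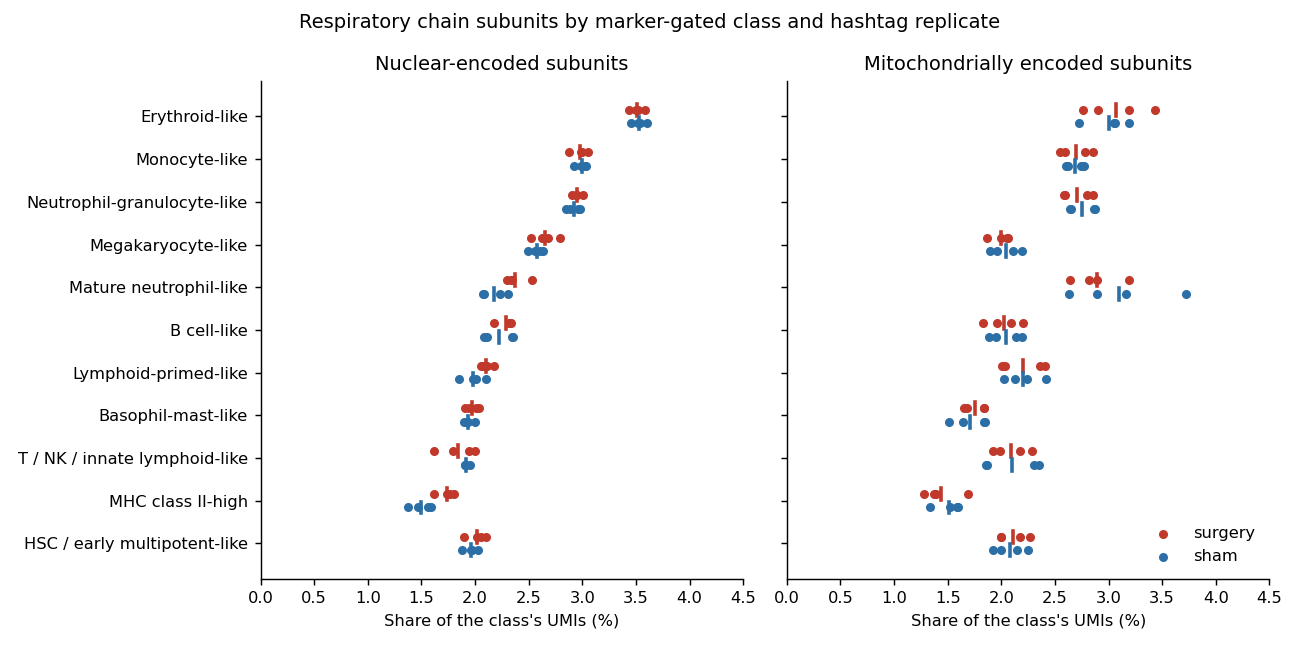
Share of UMIs (percent) from nuclear members and from mitochondrial members in each gated class, 1 point per hashtag replicate (surgery and sham in separate colours) with bars at the group means. Erythroid-like cells had the highest nuclear share (3.52%) and the MHC class II-high class the lowest (1.62%).

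The mitochondrial share followed a partly different order. Erythroid-like (3.04 ± 0.238%) and mature-neutrophil-like cells (2.995 ± 0.358%) had the highest means, with overlapping ranges, and the MHC class II-high class again the lowest (1.47 ± 0.148%). The ratio of nuclear to mitochondrial member UMIs was therefore lowest in mature-neutrophil-like cells, at 0.769 ± 0.103, and highest in megakaryocyte-like cells, at 1.30 ± 0.111, against 0.953 ± 0.0683 in HSC/MPP-like cells (SD, n = 8 each). Over the 11 classes the mean nuclear and mitochondrial shares had Pearson's r = 0.778 and Spearman's rho = 0.709, and the nuclear share and the classes' median UMIs per cell had r = 0.875 and rho = 0.845. These 11 points share the same 8 replicates and 2 libraries, and the part of depth in the order was not tested. A cap of 10% mitochondrial UMIs per cell removed 3.15% to 5.41% of cells per replicate.

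Each class was then compared with HSC/MPP-like cells of the same replicates, for 78 nuclear and 13 mitochondrial members, by edgeR's quasi-likelihood test with the replicate as a block and Benjamini-Hochberg adjustment over 11809 genes; a member is called at an adjusted p under 0.05. Fold changes are log2 of the class over HSC/MPP-like cells after TMM scaling, whereas CPM carry no such scaling. In erythroid-like cells 77 of 78 nuclear members were called higher and 1 lower, with a median log2 fold change of 1.17, where 39.6% of all genes were called higher and 40.3% lower. In neutrophil-granulocyte-like cells 77 were higher and 0 lower (median 0.92; all genes 36% and 37.8%), and in monocyte-like cells 76 were higher and 1 lower (median 0.88; all genes 35% and 35.9%). Megakaryocyte-like cells had 71 higher and 3 lower (median 0.45; all genes 21% and 22.2%). In mature-neutrophil-like cells 61 were higher and 3 lower (median 0.56; all genes 26.9% and 32.8%).

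The remaining classes lay closer to HSC/MPP-like cells. In B-cell-like cells 48 nuclear members were called higher and 13 lower (median log2 fold change 0.20; all genes 32.4% and 34.3%). Basophil-mast-like cells had 32 higher and 7 lower (0.08; all genes 24.6% and 25.9%), lymphoid-primed-like cells 18 and 2 (0.08; all genes 16% and 15.2%) and T/NK-like cells 19 and 13 (0.04; all genes 23.7% and 25.8%). Over both genomes lymphoid-primed-like cells had 26 calls, against 16 without batch 1 surgery replicate 1 and 17 without batch 2 sham replicate 2. The MHC class II-high class went the other way, with 2 higher and 47 lower (-0.36; all genes 22.1% and 25.6%). The median over all genes tested lay between -0.12, in mature-neutrophil-like cells, and -0.004, in lymphoid-primed-like cells.

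**Figure D2:**
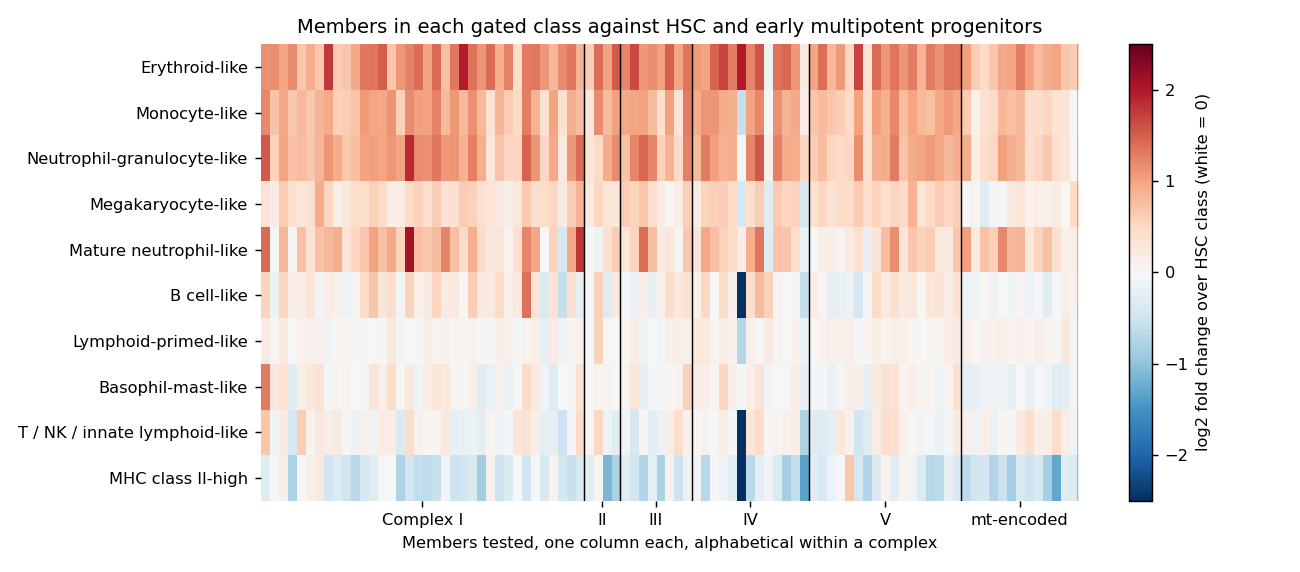
Log2 fold change of each tested member (columns, by complex) in each class over HSC/MPP-like cells (rows), with colour limits at ±2.5, which Cox6b2 passed in 3 classes. Erythroid-like, monocyte-like and neutrophil-granulocyte-like cells were higher for nearly every member, and the MHC class II-high class was lower for most.

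Where total UMIs alone set the scale, an alternative chosen after the fits were seen, the median over all genes moved to between -0.50, in mature-neutrophil-like cells, and 0.01, in B-cell-like cells. The nuclear split stayed at 75 higher and 1 lower in erythroid-like cells, 72 and 2 in neutrophil-granulocyte-like cells, 71 and 2 in monocyte-like cells, 67 and 3 in megakaryocyte-like cells, 48 and 12 in B-cell-like cells and 2 and 46 in the MHC class II-high class. It moved to 42 and 17 in mature-neutrophil-like cells, to 16 and 26 in basophil-mast-like cells, to 10 and 3 in lymphoid-primed-like cells and to 14 and 21 in T/NK-like cells. The nuclear median was then 0.85 in erythroid-like, 0.63 in monocyte-like, 0.56 in neutrophil-granulocyte-like, 0.41 in megakaryocyte-like and 0.18 in mature-neutrophil-like cells, 0.03 in lymphoid-primed-like, -0.04 in T/NK-like and -0.08 in basophil-mast-like cells. The direction of the nuclear set in basophil-mast-like cells thus depended on the scale. Without batch 1 surgery replicate 1 the split there was 21 and 10. In T/NK-like cells the direction turned with TMM scaling as well, to 10 higher and 20 lower without a low-count filter (median -0.07), to 11 and 22 without batch 1 surgery replicate 1 (-0.07) and to 11 and 15 without batch 2 sham replicate 1 (-0.02), and it was 15 and 16 without batch 2 sham replicate 2, so no direction is given for that class.

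Mitochondrial members were called higher in erythroid-like cells for 13 of 13 (median log2 fold change 0.93), in neutrophil-granulocyte-like cells for 12 (0.51), in monocyte-like cells for 11 (0.45) and in mature-neutrophil-like cells for 10 (0.60), with 0 lower in each of these 4 classes. On total UMIs alone, neutrophil-granulocyte-like and mature-neutrophil-like cells each had 8 higher and 1 lower (medians 0.15 and 0.24), monocyte-like cells 9 and 0 (0.20) and erythroid-like cells 12 and 0 (0.62). In the MHC class II-high class 0 were higher and 11 lower (-0.53), in basophil-mast-like cells 0 and 7 (-0.13), and in B-cell-like cells 1 and 5 (-0.06). Megakaryocyte-like cells had 4 higher and 1 lower (0.11), lymphoid-primed-like cells 6 and 0 (0.09), and T/NK-like cells 5 and 1 (0.12). On total UMIs alone these counts fell to 2 and 1, to 2 and 0, and to 2 and 1. Without a low-count filter T/NK-like cells had 1 higher and 2 lower (0.003), so no direction is given for their mitochondrial members either. In megakaryocyte-like cells the nuclear median of 0.45 stood beside a mitochondrial median of 0.11.

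By complex, all 36 tested complex I subunits were called higher in erythroid-like, monocyte-like and neutrophil-granulocyte-like cells and 34 in megakaryocyte-like cells. In unscaled CPM, Ndufs1 and Ndufv1 were higher than in HSC/MPP-like cells in only 2 and 3 of 8 replicates of the neutrophil-granulocyte-like class, so their direction there depended on the scale. The complex I member with the highest level over all cells was Ndufb1, a small accessory subunit, with 629 ± 51.6 CPM in erythroid-like cells and 309.5 ± 44.1 CPM in HSC/MPP-like cells. The largest class difference of complex I was that of Ndufb3, another accessory subunit of the membrane arm. Ndufb3 had 353, 431 and 479 CPM (lowest, median and highest replicate) in mature-neutrophil-like cells and 351, 369 and 383 CPM in neutrophil-granulocyte-like cells, against 119, 129.6 and 138 CPM in HSC/MPP-like cells. No replicate of either neutrophil class overlapped HSC/MPP-like cells, and the log2 fold changes were 2.09 ± 0.07 (SE, adjusted p = 1.63e-50) and 1.87 ± 0.06 (adjusted p = 1.55e-54, edgeR). Erythroid-like cells, the class with the highest nuclear share of UMIs, had 243 ± 10.3 CPM of Ndufb3, below both neutrophil classes. Ndufv1, a core subunit that carries the NADH site, was lower in mature-neutrophil-like cells (-0.42 ± 0.14, adjusted p = 0.00823) and in B-cell-like cells (-0.60). It was also called lower in T/NK-like cells (-0.52) and in the MHC class II-high class (-0.45).

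The 4 genes of complex II, succinate dehydrogenase, were all called higher in erythroid-like, monocyte-like, neutrophil-granulocyte-like and megakaryocyte-like cells after TMM scaling. In unscaled CPM Sdha, the flavoprotein, was higher in 3 of 8 monocyte-like and 3 of 8 neutrophil-granulocyte-like replicates, so its direction in these classes depended on the scale (log2 fold changes 0.26 and 0.30 after scaling). Sdhd, a membrane anchor, had 144, 175 and 206 CPM in erythroid-like cells, against 50.9, 74.7 and 103 CPM in HSC/MPP-like cells, without overlap (log2 fold change 1.53 ± 0.07, adjusted p = 1.03e-39). Sdhb, the iron-sulphur subunit, had 137, 149 and 177 CPM in lymphoid-primed-like cells, against 76.4, 104.5 and 118 CPM in HSC/MPP-like cells (0.58 ± 0.07, adjusted p = 4.41e-13), again without overlap. Sdhb was the largest called change of a nuclear member upwards in lymphoid-primed-like cells, a class where 18 of 78 were higher. It had 219.8 ± 13 CPM in erythroid-like, 197 ± 9.60 CPM in monocyte-like, 113 ± 6.63 CPM in neutrophil-granulocyte-like and 73.6 ± 11.4 CPM in mature-neutrophil-like cells, and in the last of these it was not called (-0.10 ± 0.10, adjusted p = 0.419).

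All 8 complex III subunits were higher in erythroid-like, monocyte-like and neutrophil-granulocyte-like cells. Uqcr11, a small accessory subunit, had 824, 864 and 910.0 CPM in erythroid-like cells, against 305, 344 and 381 CPM in HSC/MPP-like cells (1.65 ± 0.05, adjusted p = 1.24e-52). Its level was 571 ± 25.9 CPM in monocyte-like and 623 ± 20.3 CPM in neutrophil-granulocyte-like cells, above HSC/MPP-like cells in every replicate. In mature-neutrophil-like cells it was 387 ± 68.5 CPM, a spread that reached from 263 to 483 CPM.

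Complex IV held the member that differed most between classes. Cox6b2, a paralog of Cox6b1 known chiefly from testis, had 280, 307 and 328 CPM (lowest, median and highest replicate) in erythroid-like cells, against 81.0, 94.0 and 115 CPM in HSC/MPP-like cells. The 2 classes did not overlap (1.98 ± 0.06, adjusted p = 6.19e-53). It was at 15.9 ± 3.91 CPM in B-cell-like cells (-2.61 ± 0.11, adjusted p = 3.97e-43) and at 11.6 ± 11.4 CPM in T/NK-like cells (-3.11 ± 0.24, adjusted p = 1.59e-22), where it rested on 20 UMIs and at least 1 replicate had none. Its highest class mean was 26.5-fold its lowest, against a median of 2.47-fold over the 78 nuclear members that reached a class mean of 20 CPM.

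Cox6b1 differed far less, with 803 ± 29.9 CPM in erythroid-like, 455 ± 25.2 CPM in B-cell-like and 410 ± 21.3 CPM in HSC/MPP-like cells. As a share of the UMIs of the pair, Cox6b2 accounted for 27.7 ± 1.48% in erythroid-like, 10.7 ± 0.616% in neutrophil-granulocyte-like, 7.97 ± 0.462% in monocyte-like and 3.40 ± 0.965% in B-cell-like cells, against 19.1 ± 2.21% in HSC/MPP-like cells (SD, n = 8). Cox6b2 was called lower in lymphoid-primed-like (-0.73), monocyte-like (-0.57) and megakaryocyte-like cells (-0.43), where Cox6b1 averaged 429, 637 and 569 CPM. Cox7a2l, known for its role in joining complexes III and IV into supercomplexes, was lower in megakaryocyte-like (-0.33) and erythroid-like cells (-0.12 ± 0.05, adjusted p = 0.0269), and it was the 1 nuclear member called lower in the erythroid-like class. That call was lost without a low-count filter and under a stricter gate. It was also lost without batch 1 surgery replicate 2 and without batch 2 surgery replicate 2.

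**Figure D3:**
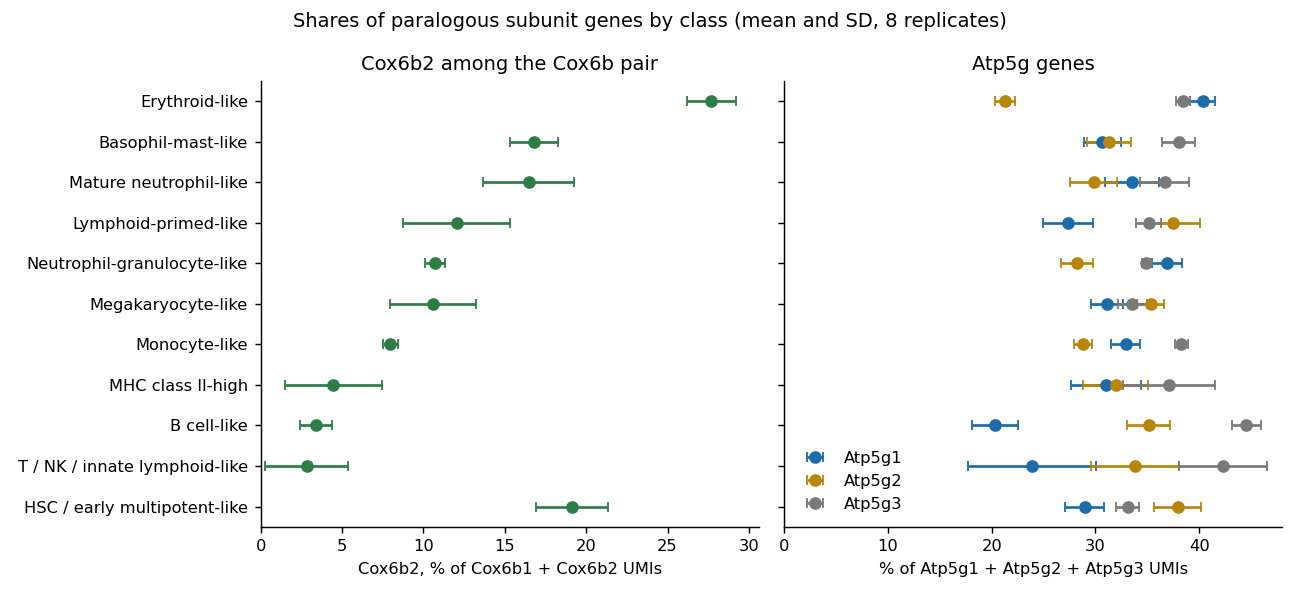
Share of UMIs (percent) of paralogous subunits within their pair or trio, by class, with the mean and SD over 8 replicates. Cox6b2 reached 27.7% of the Cox6b pair in erythroid-like cells and 3.40% in B-cell-like cells.

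Ndufa4, once assigned to complex I and now known as a complex IV subunit, was the complex IV member with the highest level over all cells. It followed another order than most members: 1098 ± 51.2 CPM in neutrophil-granulocyte-like cells (0.54 ± 0.06, adjusted p = 5.20e-15) and 378 ± 89.2 CPM in the MHC class II-high class (-1.34 ± 0.09, adjusted p = 1.35e-25), against 973 ± 103.7 CPM in HSC/MPP-like cells. Lower calls of the gene also included T/NK-like (-0.78), B-cell-like (-0.59), megakaryocyte-like (-0.42) and basophil-mast-like cells (-0.21). In erythroid-like cells the fit gave 0.25 ± 0.06 (adjusted p = 6.60e-05) while the unscaled level was 923 ± 20.2 CPM, below the HSC/MPP-like mean and higher in 3 of 8 replicates, so its direction there depended on the scale.

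All 17 complex V subunits were higher in erythroid-like, monocyte-like, neutrophil-granulocyte-like and megakaryocyte-like cells. Atp5g1, Atp5g2 and Atp5g3 encode the same mature c-ring protein, and their changes were unequal. Atp5g1 had 786, 857 and 899.6 CPM in erythroid-like cells, against 301, 326 and 375 CPM in HSC/MPP-like cells (1.68 ± 0.06, adjusted p = 9.25e-48). The log2 fold change was 1.42 ± 0.05 for Atp5g3 and 0.37 ± 0.05 for Atp5g2. Atp5g1 accounted for 40.3 ± 1.17%, Atp5g2 for 21.3 ± 0.955% and Atp5g3 for 38.4 ± 0.674% of the trio's UMIs in erythroid-like cells, against 29.0 ± 1.85%, 37.9 ± 2.29% and 33.1 ± 1.10% in HSC/MPP-like cells. In B-cell-like cells Atp5g1 made up only 20.3 ± 2.19% and Atp5g3 44.5 ± 1.38%. Atp5l, the complex V member with the highest level, had 1005 ± 47.1 CPM in neutrophil-granulocyte-like cells and 650.2 ± 44.0 CPM in HSC/MPP-like cells. Atp5e, a subunit of the central stalk, was 1 of the 2 nuclear members called higher in the MHC class II-high class, beside Ndufa3 of complex I (0.25 ± 0.08, adjusted p = 0.0102). Atp5e was at 711, 909 and 1118 CPM in that class, against 511, 553 and 676.5 CPM in HSC/MPP-like cells (0.68 ± 0.07, adjusted p = 5.83e-14), without overlap.

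Among the mitochondrial members, mt-Co3, a core subunit of complex IV, had the highest level. It reached 7479, 8146 and 10280 CPM in mature-neutrophil-like cells, against 4284, 4693 and 5050 CPM in HSC/MPP-like cells (1.20 ± 0.04, adjusted p = 1.11e-48), and 3345 ± 307 CPM in the MHC class II-high class. The largest called change was that of mt-Nd4l in the MHC class II-high class (-1.30 ± 0.35, adjusted p = 0.00113), at 9.80 ± 7.69 CPM against 25.7 ± 8.72 CPM in HSC/MPP-like cells. At these levels replicates of the MHC class II-high class held from 0 UMIs upward and overlapped those of HSC/MPP-like cells. The highest class mean of a mitochondrial member was 1.65-fold to 4.14-fold its lowest, with a median of 2.34-fold over the 12 compared, and 10 of these 12 and 55 of the 78 nuclear members were highest in erythroid-like cells.

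Other lists of mitochondrial genes were read against the shares of all genes called in each class, given above. Of 14 tricarboxylic acid cycle genes, 12 were called higher and 2 lower in erythroid-like cells (median log2 fold change 0.86), and of 47 assembly factors 30 were higher and 3 lower (0.50). Of 21 genes of mitochondrial DNA expression and biogenesis, 13 were higher and 4 lower in erythroid-like cells (0.46), 4 and 8 in monocyte-like cells (-0.02), and 5 and 9 in mature-neutrophil-like cells (-0.38). Assembly factors in that class had 13 higher and 11 lower (-0.09). Of 8 genes that mark RNA quality and handling (Malat1, Neat1 and early response and heat shock genes), 7 were lower in erythroid-like and 7 in mature-neutrophil-like cells, and their part in the member levels was not tested.

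The question of the study was what ischaemic injury does to marrow stem and progenitor cells. Surgery and sham replicates were compared in all cells and in each of the 11 classes, with batch as a term. No member was called in any of the 12 comparisons by edgeR's quasi-likelihood test with Benjamini-Hochberg adjustment, 0 of 1079 tests of 93 members, and DESeq2 also called 0. At an unadjusted p under 0.05 there were 38 tests (3.52%). At that cut 1 of 80 nuclear members stood beside 763 of 16858 genes in all cells. The counts were 12 of 78 beside 701 of 9254 in lymphoid-primed-like cells and 6 of 70 beside 353 of 3707 in the MHC class II-high class. Mitochondrial members numbered 0 in each of these comparisons. The lowest adjusted p was 0.0526. The share of all genes called was 0.0415% in all cells, 0.0206% in B-cell-like, 0% in basophil-mast-like, 0.216% in MHC class II-high, 0% in erythroid-like, 0.0299% in HSC/MPP-like and 0.4% in lymphoid-primed-like cells. It was 0% in mature-neutrophil-like, megakaryocyte-like and T/NK-like cells, 0.0637% in monocyte-like and 0.0859% in neutrophil-granulocyte-like cells. The members' count of 0 therefore stood beside a background of few calls. Ndufb11b, Cox7b2, Cox8b, Cox8c and Ndufa4l2 passed the low-count filter in no comparison, and 80 members passed it in every one. For the difference of the surgery effect between the 2 batches 0 members were called, where the share of all genes called was 0% in all cells, B-cell-like and MHC class II-high cells, 0.00781% in neutrophil-granulocyte-like, 0.00972% in erythroid-like, 0.0324% in lymphoid-primed-like, 0.0473% in T/NK-like and 0.0799% in HSC/MPP-like cells, and 0.0844%, 0.119%, 0.121% and 0.165% in megakaryocyte-like, monocyte-like, mature-neutrophil-like and basophil-mast-like cells.

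Over all cells the nuclear share was 2.85%, 2.71%, 2.79% and 2.81% in surgery replicates, against 2.77%, 2.83%, 2.78% and 2.80% in sham replicates, so the groups overlapped. The median log2 fold change was 0.01 over 80 nuclear and -0.003 over 13 mitochondrial members, against -0.002 over all 16858 genes tested. The medians of the other mitochondrial lists in all cells lay near 0 as well, with 25 of 48 assembly factors and 5 of 14 tricarboxylic acid cycle genes at a positive value and 0 called. In bulk sums such as these, fewer cells of a type and less RNA per cell cannot be told apart, which is why classes were summed separately.

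**Figure D4:**
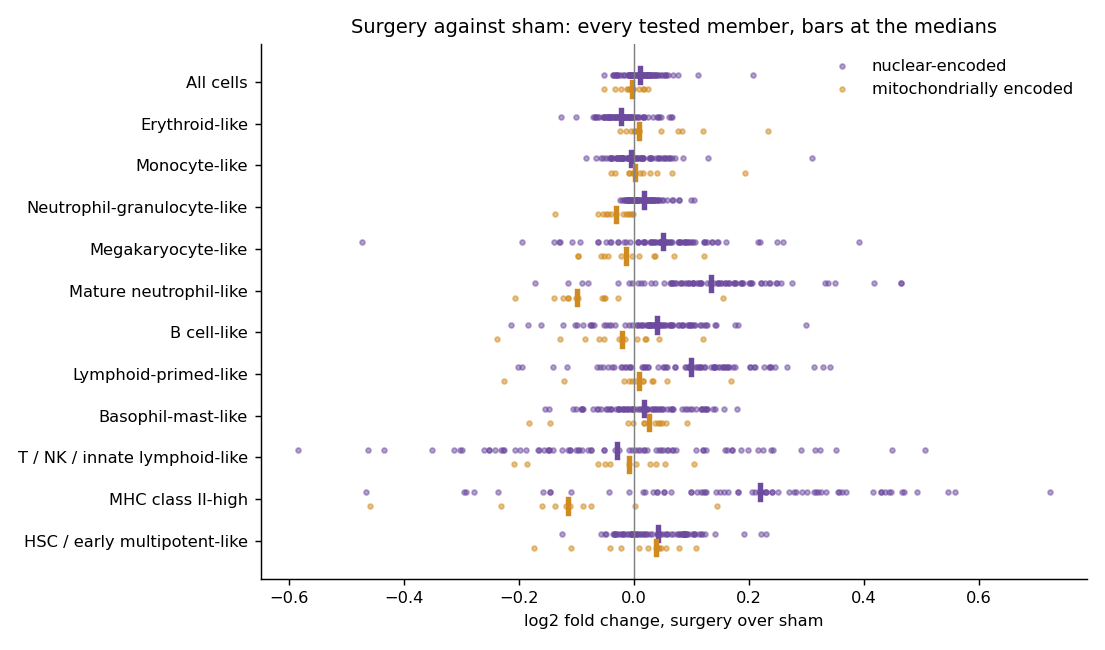
Log2 fold change of surgery over sham for nuclear and mitochondrial members in each comparison, 1 point per member with the median marked. No member passed an adjusted p of 0.05, and the nuclear medians were farthest from 0 in the MHC class II-high (0.22), mature-neutrophil-like (0.13) and lymphoid-primed-like (0.10) classes.

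Within classes the nuclear medians were farthest from 0 in 3 classes. In lymphoid-primed-like cells 61 of 78 nuclear members had a positive fold change, with a median of 0.10 (0.06 in batch 1 and 0.12 in batch 2), beside 0.002 over 9254 genes. In the MHC class II-high class 59 of 70 were positive, with a median of 0.22 (0.19 in batch 1 and 0.25 in batch 2), beside 0.004 over 3707 genes. In mature-neutrophil-like cells 71 of 78 were positive (0.13; 0.07 and 0.22 by batch), beside 0.0004 over 5792 genes; the median was 0.08 without batch 2 sham replicate 2 and 0.07 under a stricter gate. Erythroid-like cells had 61 of 78 negative, with a median of -0.02. None of these members passed the test. In the mature-neutrophil-like class the 7 markers that gate it summed to 69160 to 123000 CPM in surgery replicates, against 87410 to 143800 CPM in sham replicates, with 7 of 7 lower by mean. The 7 neutrophil-granulocyte markers summed there to 35760 to 42870 CPM in surgery replicates, against 31130 to 39530 CPM in sham replicates, with 7 of 7 higher by mean, and none of either list was at 0. All 5 tested genes of RNA quality and handling had a positive fold change in that class (median 0.13), and the part of these in its member values was not tested.

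Ndufa4 in lymphoid-primed-like cells came nearest to the threshold. It had 929.9, 873, 1048 and 957 CPM in surgery replicates (batch 1, batch 1, batch 2, batch 2), against 782, 802, 637 and 830.0 CPM in sham replicates. Every surgery replicate lay above every sham replicate. The means were 952 ± 73.1 CPM and 763 ± 86.0 CPM (SD, n = 4 each), the log2 fold change was 0.33 ± 0.08 with an adjusted p of 0.0526 (edgeR), and by batch it was 0.20 ± 0.11 and 0.45 ± 0.11. The low sham value of 637 CPM is that of batch 2 replicate 1. Without it the log2 fold change was 0.23 (adjusted p = 0.258). Without batch 1 surgery replicate 2 the gene was called (0.38, adjusted p = 0.0467), likewise without batch 2 sham replicate 2 (0.39, adjusted p = 0.0307), with the top 2% of UMIs left out (0.33, adjusted p = 0.0440) and without a low-count filter (0.32, adjusted p = 0.00179). Over all alternatives the adjusted p of this gene and class lay between 0.00179 and 0.276.

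In HSC/MPP-like cells Ndufa4 had 1064, 915, 1124 and 1081 CPM in surgery replicates, against 911, 893, 837 and 954.5 CPM in sham replicates. The groups overlapped by 1 surgery replicate, which lay below the highest sham value (0.23 ± 0.06, adjusted p = 0.384). Without that replicate the gene was called (0.29, adjusted p = 0.0205), and likewise without a low-count filter (0.23, adjusted p = 0.0314). In neutrophil-granulocyte-like cells it had 1171, 1129, 1132 and 1109 CPM in surgery replicates, against 1037, 1056, 1030.0 and 1123 CPM in sham replicates (0.10 ± 0.03, adjusted p = 0.927), and in all cells the log2 fold change was 0.11 ± 0.04. In erythroid-like cells, by contrast, it was -0.01 ± 0.03, with surgery replicates between 894 and 946 CPM and sham replicates between 904 and 946 CPM. The difference of its surgery effect between lymphoid-primed-like and HSC/MPP-like cells was 0.10 ± 0.07 (adjusted p = 0.914, edgeR). For that difference 0 of 91 members were called, where 0.0674% of all genes were called at the same adjusted threshold. At an unadjusted p under 0.05 there were 5 of 91 members. The share of all genes at that looser cut was not computed, so nothing is read from this count.

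**Figure D5:**
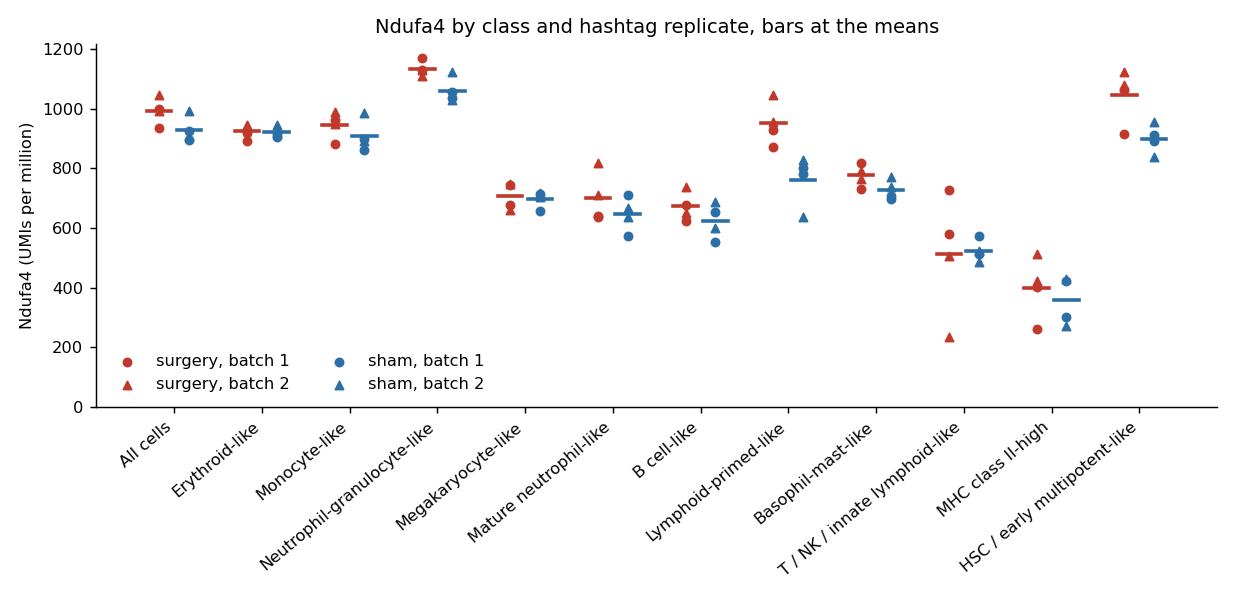
Ndufa4 level (CPM) by hashtag replicate in each class, surgery left of sham, with the 2 batches marked. Surgery and sham replicates were apart only in lymphoid-primed-like cells among the 11 classes (952 against 763 CPM on average), and the adjusted p there was 0.0526.

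Beside Ndufa4, 3 further members had groups apart in lymphoid-primed-like cells, all with surgery above sham, where 1.72% of all genes did so. Ndufa12, an accessory subunit of complex I, had 197, 201, 197.5 and 191 CPM in surgery replicates, against 181, 163, 138 and 162.5 CPM in sham replicates (0.31 ± 0.09, adjusted p = 0.254). Atp5b, the catalytic beta subunit of complex V, had 455, 425, 506 and 451.5 CPM in surgery replicates, against 404, 370.3, 386 and 407 CPM in sham replicates (0.25 ± 0.07, adjusted p = 0.276). The remaining member was Atp5d, another subunit of complex V (0.14 ± 0.09, adjusted p = 0.777). By complex, positive values were counted for 25 of 36 members of complex I, 4 of 4 of complex II, 6 of 8 of complex III, 11 of 13 of complex IV and 15 of 17 of complex V, with medians between 0.06 and 0.18. The mitochondrial members did not move with them: 7 of 12 were positive, with a median of 0.01, and mt-Atp8, the member of lowest p among them, had 51.5, 62.2, 55.4 and 44.0 CPM in surgery replicates, against 85.6, 56.5, 57.9 and 59.9 CPM in sham replicates.

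Other measures of this class are given for comparison. The summed level of the 7 neutrophil-granulocyte markers was 1429 to 1678 CPM in surgery replicates, against 1549 to 2456 CPM in sham replicates, with 6 of 7 lower by mean and none at 0. The 6 lymphoid-primed markers summed to 2590 to 2945 CPM in surgery replicates, against 2249 to 2726 CPM in sham replicates, with only 3 of 6 higher by mean. The groups overlapped in both sums. Of 8 genes of RNA quality and handling 7 had a negative fold change (median -0.21), Malat1 among them at -0.15 ± 0.05 (adjusted p = 0.432). The part of these in the member values was not tested.

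In the MHC class II-high class the nuclear share of UMIs was 1.62%, 1.81%, 1.77% and 1.74% in surgery replicates, against 1.38%, 1.56%, 1.47% and 1.59% in sham replicates. The groups did not overlap, with a difference of 0.244 percentage points in batch 1 and 0.225 in batch 2. Groups were apart with surgery above sham for 6 of 70 nuclear members, where 1.43% of all genes did so: Uqcrc1, Atp5o, Atp5h, Atp5b, Atp5k and Ndufb1. Uqcrc1, a core protein of complex III, had 123, 128, 190.3 and 163 CPM in surgery replicates, against 60.5, 89.9, 96.1 and 105 CPM in sham replicates (0.72 ± 0.24, adjusted p = 0.277). Atp5o, of the peripheral stalk of complex V, had 342, 256, 256 and 299.6 CPM in surgery replicates, against 151, 184, 217 and 199 CPM in sham replicates (0.55 ± 0.20, adjusted p = 0.329). These values rest on 158 and 302 UMIs over all replicates. Complex V had 16 of 17 members positive, with a median of 0.23.

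The mitochondrial members of the class lay on the other side, with 8 of 10 negative and a median of -0.12. mt-Nd5 had 123, 111, 83.3 and 118 CPM in surgery replicates, against 227, 137, 121 and 157 CPM in sham replicates (-0.46 ± 0.25, adjusted p = 0.569), with overlap. Assembly factors had 4 of 10 positive (median -0.11) and tricarboxylic acid cycle genes 3 of 9 (-0.06). Malat1, a nuclear RNA, made up 0.672%, 0.442%, 0.289% and 0.308% of UMIs in surgery replicates, against 0.740%, 0.642%, 0.473% and 0.366% in sham replicates (-0.40 ± 0.10, adjusted p = 0.0957). The median UMIs per cell were 1882, 1816, 2668.5 and 2372 in surgery replicates, against 1641, 1589, 2083.5 and 2342 in sham replicates, so depth was greater in each batch's surgery replicates by mean. The 9 B-cell markers summed to 1124 to 4780 CPM in surgery replicates, against 1907 to 5656 CPM in sham replicates, with 7 of 9 lower by mean and none at 0. The part of depth, RNA quality and B-cell transcripts in the member values was not tested.

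For the other classes, members of low p are given as examples. At an unadjusted p under 0.05 (edgeR) there were 6 of 78 nuclear members in mature-neutrophil-like cells, beside 276 of all 5792 genes. The count was 3 of 78 in HSC/MPP-like cells, beside 404 of 10017 genes. It was 2 of 78 in megakaryocyte-like cells, beside 377 of 8291 genes. Groups were apart with surgery higher for 2 of the 78 in mature-neutrophil-like cells, both of complex I, where 50 of all 5792 genes did so. In mature-neutrophil-like cells Uqcr11 had 441, 374, 483 and 425 CPM in surgery replicates, against 262.5, 372, 404 and 332 CPM in sham replicates, with overlap (0.34 ± 0.13, adjusted p = 0.967), while 11 of 12 mitochondrial members were negative (median -0.10; 0.04 in batch 1 and -0.19 in batch 2). In megakaryocyte-like cells Uqcrc2, the partner of Uqcrc1 in the core of complex III, had 130.4, 119, 122 and 117 CPM in surgery replicates, against 60.6, 95.1, 99.4 and 101 CPM in sham replicates (0.39 ± 0.13, adjusted p = 0.9998). In T/NK-like cells Ndufs7, an iron-sulphur subunit of complex I, had 86.8, 92.5, 86.3 and 100.5 CPM in surgery replicates, against 115, 138, 114 and 144 CPM in sham replicates (-0.46 ± 0.21, adjusted p = 0.9998). Neither pair of groups overlapped, which held with surgery higher for 1.12% of all genes in megakaryocyte-like cells and with surgery lower for 1.4% in T/NK-like cells, and neither gene passed the test.

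In erythroid-like cells Ndufv1 had 131, 131, 124 and 123.5 CPM in surgery replicates, against 136.5, 147, 133 and 131 CPM in sham replicates (-0.13 ± 0.06, adjusted p = 0.9999), without overlap, where 0.758% of all genes were apart in this direction. All 13 mitochondrial members were negative in neutrophil-granulocyte-like cells, though with a median of -0.03, and mt-Nd4 had 1286, 1263, 1231 and 1271 CPM in surgery replicates, against 1317, 1295, 1302 and 1355 CPM in sham replicates (-0.05 ± 0.03, adjusted p = 1), without overlap, where 0.914% of all genes were apart in this direction. In HSC/MPP-like cells Sdha, the flavoprotein of complex II, was at 153, 151, 139.6 and 139 CPM in surgery replicates, against 132, 122, 132 and 121 CPM in sham replicates (0.22 ± 0.08, adjusted p = 0.9999), without overlap, where 0.809% of all genes were apart in this direction, and mt-Nd5 was at -0.17 ± 0.08. The members of lowest p had smaller fold changes in B-cell-like (Ndufb9, 0.17 ± 0.09), basophil-mast-like (Cox6c, 0.13) and monocyte-like cells (Ndufa13, 0.08).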

How the data were processed

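The authors deposited unnormalised UMI counts, 1 matrix per library with genes and hashtags as its lines. Cell Ranger and GRCm38 are named, per the submitters' processing notes, without versions; strand use and multiply mapped reads are not given in the sources used here. The members and lists were chosen with earlier results of these data known.

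Barcodes with at least 500 genes, 1000 UMIs and at most 10% mitochondrial UMIs passed: 17065 of the 18094 deposited for batch 1, and 13568 of the 14179 for batch 2. Exactly 1 hashtag line at 200 counts or more was required: 14678 and 12264 barcodes passed, 10.5% and 7.24% had none, and 3.53% and 2.37% had several and were removed as doublets. No doublet caller was run, so doublets of 1 hashtag stayed; leaving out the top 2% of UMIs per library is an alternative. Hashtag lines made up 22.2% and 16.1% of counts and were kept out of library sizes.

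A cell's class was the marker list with the highest mean standardised log expression (values capped at 5 SD), at least 0.5, with a margin of at least 0.25 over the next list and at least 3 markers detected. This left 3090 and 2201 cells ungated, and 735 and 653 lay within 0.1 of a limit. The eosinophil-like gate (131 cells, 6 in 1 replicate) and smaller ones were not tested. The neutrophil-granulocyte-like and T/NK-like gates had 2 and 1 of their own markers among their 10 leading genes by fold. Classes rest on these rebuilt gates.

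UMIs were summed per replicate and class and tested by edgeR 4.0.16 (R 4.3.3) with filterByExpr, TMM and the quasi-likelihood test, checked on simulated data. Surgery fits had batch as a term; class fits had the replicate as a block. Adjustment (Benjamini-Hochberg) was over all genes of a comparison, at 0.05. CPM are UMIs per 1000000 UMIs, without TMM factors. DESeq2 1.42.0 was an alternative; the others were its size factors, no low-count filter, no batch term, no mitochondrial cap, mitochondrial genes left out of library sizes, 500 hashtag counts, a stricter gate, each replicate left out in turn, a replicate block and, chosen after seeing the data, no scaling factors. Named members were those called, else the nuclear and the mitochondrial member of lowest p per surgery comparison, the highest level and the largest class change per complex, and members tested nowhere; other names were chosen after their values were seen. Gene positions are from GENCODE M21 (32098 gene identifiers matched).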

Additional observations from a re-analysis of the deposited data

Results flagged for a closer look

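In groups of 4 replicates, 1 value is marked where its gap to the nearest of the others over the group's range exceeds Dixon's 95% critical value. Of 96 groups tested over the nuclear and mitochondrial shares and the named members, 3 were marked, and chance marks about 1 group in 20. The nuclear share of UMIs in B-cell-like cells was 2.18% in batch 1 surgery replicate 2, against 2.32% to 2.33% in the other surgery replicates. In lymphoid-primed-like cells mt-Atp8 was at 85.6 CPM in batch 1 sham replicate 1, against 56.5 to 59.9 CPM in the other sham replicates. In megakaryocyte-like cells Uqcrc2 was at 60.6 CPM in batch 1 sham replicate 1, against 95.1 to 101 CPM in the other sham replicates.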

How the results depend on the processing

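No member chosen by the naming rule changed direction in its comparison under the alternatives run. Members whose unscaled level went against the fit include Ndufa4, Sdha, Ndufs1 and Ndufv1 in the classes given above, and this list is not complete. In basophil-mast-like cells Ndufb5 and Uqcrh were called higher, with only 3 of 8 replicates higher in unscaled CPM. The same held for Ndufa4 in monocyte-like cells. The nuclear median over HSC/MPP-like cells turned negative in basophil-mast-like cells without scaling factors (-0.08) and in T/NK-like cells without scaling factors (-0.04), without a low-count filter (-0.07) and without batch 1 surgery replicate 1 (-0.07) or batch 2 sham replicate 1 (-0.02). The count of members called for surgery over the gated classes, 0, was 2 without a low-count filter, 1 with the top 2% of UMIs left out and 0 to 2 with 1 replicate left out at a time. These calls were Ndufa4 in lymphoid-primed-like cells (1 without the filter, 1 with the top 2% left out, 0 to 1 with 1 replicate left out) and in HSC/MPP-like cells (1 without the filter, 0 to 1 with 1 replicate left out). The members called in lymphoid-primed-like against HSC/MPP-like cells, 26, numbered 16 without a low-count filter, 15 without scaling factors and 16 to 24 with 1 replicate left out; the cause was not tested. The other 399 totals of called members, both directions and genomes together, equalled their main value or stayed within 1.5 times of it. They include the surgery comparisons with 0 calls both times, for which a ratio has no meaning. Counts in a single direction moved more, as given above for T/NK-like, basophil-mast-like and mature-neutrophil-like cells, and mitochondrial members called lower in B-cell-like cells numbered 2 under a stricter gate, against 5. The median over nuclear members stayed positive in lymphoid-primed-like (0.07 to 0.13), MHC class II-high (0.15 to 0.25) and mature-neutrophil-like cells (0.07 to 0.18), whereas in T/NK-like cells it moved to 0.04 without batch 2 surgery replicate 1 and to 0.008 without batch 2 sham replicate 2. Replicates of the same number within a batch did not deviate together (correlations of 0.006 and 0.002 over 16858 genes), so the numbers were not taken as pairs. With a replicate block by number 0 members were called in each surgery comparison, and Ndufa4 in lymphoid-primed-like cells had 0.33 with an adjusted p of 0.0693. Without the replicate block in the class fits 655 calls were made, against 658 with it. Classes of few cells limit precision: the T/NK-like class had 19 cells in its smallest replicate, the mature-neutrophil-like class 27 and the MHC class II-high class 36. The counts carry sampling error of UMIs only, and low members such as Cox6b2 in T/NK-like cells rest on 20 UMIs.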

Other observations

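Minor isoforms of complex IV were found in few UMIs and unequally between classes; their choice followed a look at the values, so no test is given. Cox4i2, a paralog of Cox4i1 known for expression in lung and a link to oxygen supply, had 580 UMIs over all cells, of which 368 lay in monocyte-like cells, where it made up 0.555 ± 0.166% of the UMIs of the Cox4i pair (SD, n = 8). In neutrophil-granulocyte-like cells, a class of greater depth, it made up 0.0564 ± 0.0365% with 45 UMIs, and in erythroid-like cells 0.0380 ± 0.0349% with 13 UMIs. Within monocyte-like cells it had 7.28, 5.85, 4.37 and 6.70 CPM in surgery replicates, against 3.33, 7.94, 6.83 and 3.36 CPM in sham replicates, and the groups overlapped.

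Cox7a1, the paralog of Cox7a2 known from heart and skeletal muscle, had 461 UMIs, 94 of them in B-cell-like cells, where it made up 0.842 ± 0.309% of the UMIs of Cox7a1, Cox7a2 and Cox7a2l. The share was 0.319 ± 0.137% in monocyte-like and 0.0647 ± 0.0403% in erythroid-like cells. In B-cell-like cells it had 4.51, 11.1, 9.08 and 7.45 CPM in surgery replicates, against 6.20, 4.30, 10.7 and 4.41 CPM in sham replicates, again with overlap.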
